A study of Mus musculus with 4 samples.

Results

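The genes encoding the NF-kB subunits (Rela, Relb, Rel, Nfkb1 and Nfkb2) and the IkB proteins (Nfkbia, Nfkbib, Nfkbie, Nfkbiz and Bcl3) were followed in inflamed ears of mice with and without an epidermal deletion of RelA. Members were the non-control array spots whose gene name is one of these 10, which gave 16 spots and 15 probes among 59305 non-control spots and 33664 tested probes. The mutant mice, labelled RelAE-MUT, had the genotype K14Cre RelAfl/fl, in which a Cre recombinase under the keratin 14 promoter recombines floxed Rela in basal keratinocytes. The wild-type mice, labelled RelAfl/fl, carried the floxed allele without the recombinase. Ear samples of the mutant (n = 2) and wild-type (n = 2) mice were collected 48 h after 2,4-dinitrofluorobenzene, a contact allergen, was applied, and cRNA labelled from 100 ng of total RNA of each was read on 1 one-colour array per sample. All 4 samples were treated, so the values describe inflamed skin, and age and strain are not given in the labels. Fibroblasts, immune cells, muscle and cartilage of the mutant ear do not use the keratin 14 promoter, and in whole-ear RNA fewer cells of a type and less RNA per cell cannot be told apart.

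NF-kB is a family of dimeric transcription factors built from RelA (p65), RelB, c-Rel, p50 (made from the Nfkb1 product) and p52 (made from the Nfkb2 product). Classical IkB proteins hold the dimers in the cytoplasm until IkB kinase marks them for degradation, and several of their genes are themselves NF-kB targets, which closes a feedback loop. The atypical IkB proteins IkB-zeta (Nfkbiz) and Bcl-3 act in the nucleus on dimers that hold p50 or p52. In skin the pathway links allergens and cytokines to inflammatory gene expression and protects keratinocytes from cell death.

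Each of the 10 genes was measured above background on 4 of 4 arrays at every probe, and none differed between mutant and wild-type ears at an adjusted p under 0.05. The differences at the 15 probes lay between -0.22 and 0.28 on the log2 scale (mutant minus wild type), from Relb at the low end to Nfkbiz at the high end. In limma's test 0 of the 15 probes passed the threshold and 0 had an unadjusted p under 0.05, where 0.0208% of all tested probes passed (0.0119% higher and 0.00891% lower in the mutants) and 6.56% had such a p. The adjusted p, taken over all 33664 tested probes with limma, ranged from 0.786 to 0.997. At 15 of 15 probes the 95% interval of the difference lay within a 2-fold change in either direction, as it did for 88.88% of all tested probes. A p that misses the threshold does not show that the groups are alike, and the intervals give the sizes that these 4 arrays leave possible. The 2 arrays per group limit the precision. The labels do not say whether a sample is 1 mouse or a pool, so p-values measure the spread between these samples only.

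The probes report different stretches of the transcripts, which matters where a gene has several. The coordinates that the files give on mouse build mm9 span more than the 60 bases of the probe for 3 of the 15, a span that a probe across an exon junction has (Nfkbia, Nfkb2 and 1 probe of Nfkbib). For Rel they span only 15 bases, so the listed position covers part of that probe. The hexamer AATAAA, the usual signal for polyadenylation, occurs on the transcript strand of 5 of the 15 probes (Rela, Rel, Nfkbie, Bcl3 and 1 probe of Nfkb1), against 12.02% of all tested probes. A letter match of this kind is a description and shows no cleavage site. The sequences of 6 probes, none with that hexamer, show from which stretches Nfkbia, Nfkbib, Nfkbiz, Nfkb2 and 1 of the 2 probes of Nfkb1 were read. They are given 5′ to 3′ as in the array files.
Nfkbia probe, chr12:56590945-56591440 (mm9, minus strand), from base 970 of the transcript: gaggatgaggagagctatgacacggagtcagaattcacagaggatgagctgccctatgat
Nfkb2 probe, chr19:46386146-46386285 (mm9, plus strand), from base 2850: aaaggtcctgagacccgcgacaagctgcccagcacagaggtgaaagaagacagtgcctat
Nfkb1 probe, chr3:135254550-135254609 (mm9, minus strand), from base 2747: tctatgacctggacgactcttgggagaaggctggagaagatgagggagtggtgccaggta
Nfkbib probe, chr7:29545252-29546647 (mm9, minus strand), from base 694: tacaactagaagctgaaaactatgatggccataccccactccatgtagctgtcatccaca
Nfkbib probe, chr7:29544160-29544219 (mm9, minus strand), from base 1084: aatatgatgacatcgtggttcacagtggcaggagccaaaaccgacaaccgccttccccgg
Nfkbiz probe, chr16:55817859-55817918 (mm9, minus strand), from base 1605: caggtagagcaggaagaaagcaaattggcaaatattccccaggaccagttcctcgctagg

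Rela, the gene deleted in the epidermis of the mutants, is given first. Its only probe, from base 2648 of NM_009045 (chr19:5648070-5648129 on mm9, plus strand), read 4.59 and 4.72 in mutant samples 1 and 2 and 4.48 and 4.60 in wild-type samples 1 and 2, a log2 scale on which 0 is the array's 75th percentile. The groups overlapped, with mutant sample 1 just below wild-type sample 2. The log2 difference was 0.11 ± 0.12 (SE, n = 2 samples per group), with a 95% interval from -0.21 to 0.44. Expressed as a ratio of mutant to wild type, the interval ran from 0.866 to 1.35. Which exons are floxed is not stated in the labels, and whether this probe lies within them was not determined. Whole-ear RNA also includes RNA from cells that do not use the promoter of the recombinase. Any Rela RNA of those cells is part of the value, whatever the position of the probe. The deletion is thus neither shown nor contradicted by this value.

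The Rela spot also lies in a region of signal loss at one corner of mutant array 2 (rows up to 120, columns from 140), at row 73 and column 155. In that corner 8.88% of the spots that were well above background on the other 3 arrays were not so on this one, against 0.628% over the rest of the array. The loss was patchy. Within 5 rows and columns of the Rela spot, 2 of 61 such spots (3.279%) were dark, and the median of these 61 differed from the mean of the other 3 arrays by 0.05 on the log2 scale. The processed value of the Rela spot itself stood 0.16 above that mean. Its raw mean signal was 14280 and 13470 in mutant samples 1 and 2 and 14100 and 14690 in wild-type samples 1 and 2, so that mutant sample 2 was the lowest of the 4 before detrending. After it, at 14930 and 15520 in the mutants and 14840 and 15120 in wild type, it was the highest. From the raw signal with normexp background correction the log2 difference was 0.030. With the corner set to missing, so that mutant sample 1 alone stood for its group, the log2 difference was 0.049. The other 14 probes lie outside the corner.

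**Figure D1:**
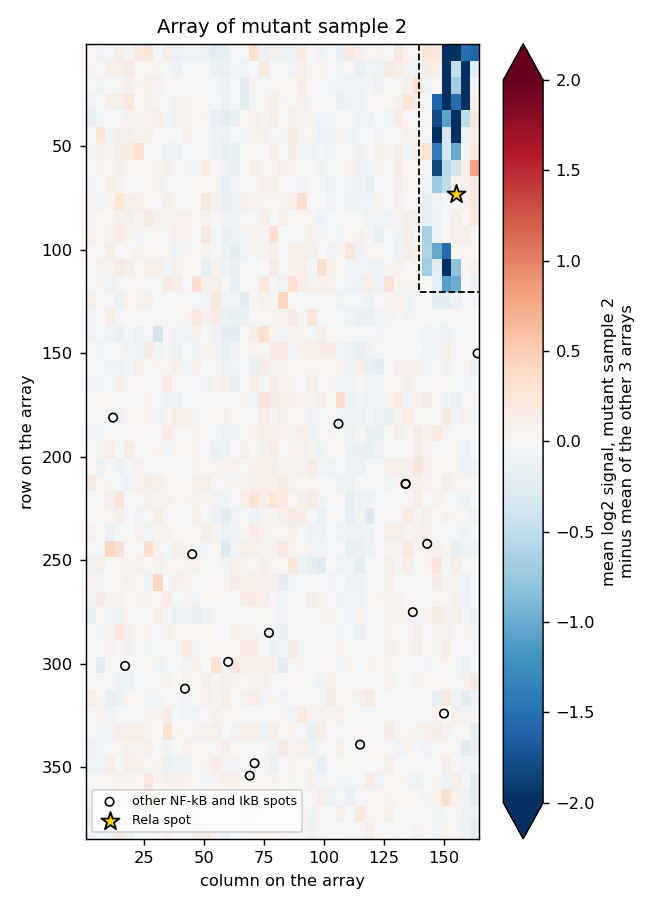
Array of mutant sample 2, with the column on the array across and the row down. Colour gives, in blocks of spots, the mean log2 signal minus the mean of the other 3 arrays, the dashed line bounds the corner, the star is the Rela spot and the circles are the other NF-kB and IkB spots. Dark blue patches lie above and below the row of the Rela spot, at row 73.

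Relb encodes the partner of p52 in the non-canonical pathway, and its values were lower in the mutants at 2 of its 3 probes. At the brightest probe (from base 1993 of NM_009046, chr7:20191722-20191781 on mm9) Relb read 1.53 and 1.46 in mutant samples 1 and 2 and 1.68 and 1.63 in wild-type samples 1 and 2. At the probe from base 1942 it read 0.64 and 0.56 in the mutant samples and 0.81 and 0.84 in the wild-type samples. Both mutant values lay below both wild-type values at these 2 probes. The log2 differences were -0.16 ± 0.11 and -0.22 ± 0.11 (SE, n = 2 per group), with intervals from -0.45 to 0.14 and from -0.51 to 0.07 and adjusted p of 0.867 and 0.825 in limma's test. These probes share 9 bases of the genome and are not independent of each other as positions. The third probe, from base 785 of the Ensembl transcript ENSMUST00000108452, was dimmer, with -2.12 and -2.06 in the mutant samples and -2.06 and -2.11 in the wild-type samples. There the groups overlapped and the difference was -0.0045 ± 0.11.

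Rel encodes c-Rel, which is known mainly from lymphocytes and myeloid cells. Its probe was the dimmest of the 15 in processed intensity, at 28.3 and 30.4 in mutant samples 1 and 2 and 26.1 and 29.1 in wild-type samples 1 and 2. Relative to the array's percentile these are -4.45 and -4.27 in the mutants and -4.67 and -4.42 in wild type on the log2 scale. The ranges overlapped, and the difference was 0.18 ± 0.15 (SE, n = 2 per group) with an interval from -0.20 to 0.57. It was 0.061 without wild-type sample 1 and 0.31 without wild-type sample 2. The scanner software's own error was 13.23% to 15.04% of the signal at this spot over the 4 arrays, against at most 10.28% at the other 14 probes.

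Nfkb1 and Nfkb2 encode the precursors p105 and p100, whose C-terminal ankyrin repeats act as IkB-like inhibitors until they are removed. Nfkb1 gave opposite signs at its 2 probes. The brighter one, from base 4056 of NM_008689 and printed at 2 spots per array, read 0.19 and 0.27 in mutant samples 1 and 2 and 0.11 and 0.13 in wild-type samples 1 and 2, a difference of 0.11 ± 0.11. The mutant values were both higher there. At the probe from base 2747 the mutants read -0.06 and 0.25 and wild type 0.20 and 0.19, with a difference of -0.10 ± 0.15 and overlapping groups. The 2 mutant samples were 0.31 apart at that probe, more than the difference between the groups. Nfkb2 read 0.68 and 0.81 in the mutant samples and 0.93 and 0.78 in the wild-type samples, also with overlap, and its difference was -0.11 ± 0.12 with an interval from -0.44 to 0.22. With 1 sample left out it ran from -0.18 (without wild-type sample 2) to -0.033 (without wild-type sample 1).

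**Figure D2:**
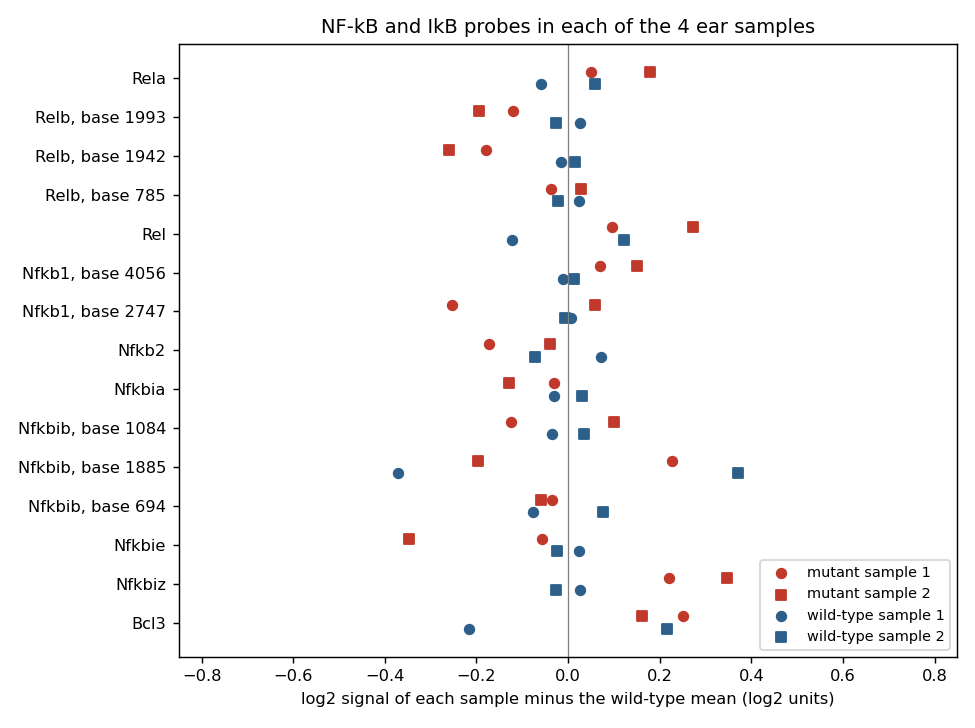
Log2 signal of each sample at the 15 probes, minus the wild-type mean of that probe (x axis, log2 units). Red points are the mutant samples and blue points the wild-type samples, with circles for sample 1 and squares for sample 2 of a group. Both mutant points lie to the right of both wild-type points for Nfkbiz and 1 probe of Nfkb1, and to the left for 2 probes of Relb and for Nfkbie and Nfkbia.

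Among the classical inhibitors, Nfkbia encodes IkB-alpha, the feedback inhibitor that NF-kB induces most directly. It read 4.80 and 4.70 in mutant samples 1 and 2 and 4.80 and 4.86 in wild-type samples 1 and 2. Its processed intensity lay between 15280 and 17230 in the mutants and between 18060 and 18450 in wild type, below saturation on every array. The mutant values were both lower, mutant sample 1 by less than 0.001 from wild-type sample 1. The log2 difference of -0.08 ± 0.11 (SE, n = 2 per group) had an interval from -0.38 to 0.22, which is a ratio of mutant to wild type between 0.768 and 1.17. With 1 sample left out it ran from -0.13 (without mutant sample 1) to -0.030 (without mutant sample 2).

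Nfkbie encodes IkB-epsilon, a slower feedback inhibitor. It read 0.99 and 0.70 in mutant samples 1 and 2 and 1.07 and 1.03 in wild-type samples 1 and 2. Both mutant values were lower, but the 2 mutant samples were 0.29 apart, more than the group difference of -0.20 ± 0.14. Without mutant sample 2 the difference was -0.056, and without mutant sample 1 it was -0.35.

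Nfkbib, which encodes IkB-beta, is an inhibitor less bound to rapid feedback, and its 3 probes gave differences near 0. At the brightest, from base 1084 of NM_010908, it read 1.79 and 2.01 in mutant samples 1 and 2 and 1.88 and 1.95 in wild-type samples 1 and 2. At the probe from base 694 it read 0.21 and 0.19 in the mutant samples and 0.17 and 0.33 in the wild-type samples. The groups overlapped at both, with differences of -0.01 ± 0.13 and -0.05 ± 0.12. The probe from base 1885 was far more variable, with -0.54 and -0.96 in the mutants and -1.14 and -0.39 in wild type. Its wild-type samples were 0.74 apart, the widest gap within a wild-type pair among the 15 probes, and its interval ran from -0.79 to 0.82. The same 2 samples were 0.070 apart at the brightest probe of the gene.

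Of the 15 probes, those of the atypical IkB proteins Nfkbiz and Bcl3 had the largest positive differences. Nfkbid, an atypical IkB protein outside the members, had -0.12 ± 0.12. Nfkbiz, needed in keratinocytes for responses to interleukin-17 and interleukin-36, read -0.29 and -0.16 in mutant samples 1 and 2 and -0.48 and -0.53 in wild-type samples 1 and 2. Both mutant values were higher, and the difference of 0.28 ± 0.12 (SE, n = 2 per group) exceeded the gap between the samples of either group, which was 0.13 in the mutants and 0.052 in wild type. It did not pass the test (adjusted p = 0.786 with limma, unadjusted p = 0.0625), and its interval ran from -0.02 to 0.59. Of all tested probes 80.99% had a difference smaller in size. Bcl3 read 3.52 and 3.44 in the mutant samples and 3.06 and 3.49 in the wild-type samples. Wild-type sample 1 alone was low there, the groups overlapped, and without that sample the difference of 0.21 ± 0.18 became -0.0095. Without wild-type sample 2 it was 0.42.

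**Figure D3:**
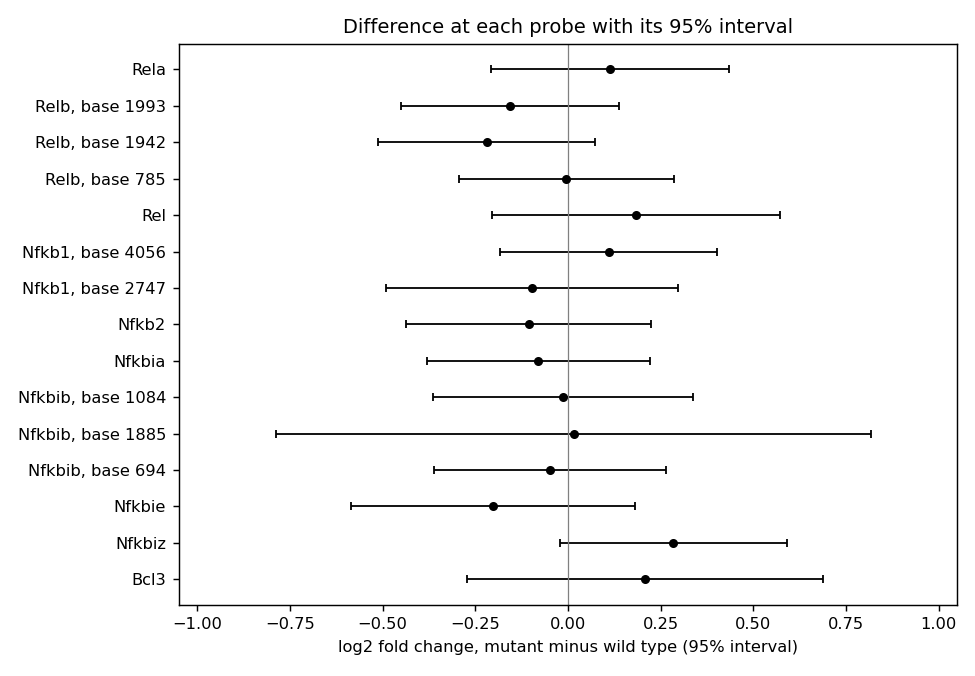
Log2 fold change, mutant minus wild type, at each of the 15 probes (x axis), with bars for the 95% interval of limma's moderated estimate from 2 samples per group. Every interval holds 0 and lies between -1 and 1, and the widest belongs to the Nfkbib probe from base 1885, from -0.79 to 0.82.

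Over the 15 probes, 2 were higher and 4 lower in the mutants with no overlap between the groups, where 18.7% of all tested probes were higher, 17.6% lower and 36.3% either in that way. By probe the members' share is thus near that of the array. The median difference was -0.01 over the 15 probes and 0.01 over all tested probes. By gene, each at its brightest probe, 2 of 10 were higher and 3 lower without overlap. Of all genes 18.9% were higher and 17.4% lower in that way. The median difference by gene was 0.05 (all genes, 0.01). The 8 probes of the subunits had a median of -0.05 and the 7 probes of the IkB proteins one of -0.01. At 4 of the 15 probes the difference was larger than the gap between the samples of either group, namely for Nfkbiz, 2 probes of Relb and 1 of Nfkb1, and at 22.98% of all tested probes. Within a group the 2 samples differed by a median of 0.13 (mutant) and 0.060 (wild type) over the 15 probes, against 0.15 and 0.16 over all tested probes.

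The surrounding pathway was described with 4 gene lists, each gene at its brightest tested probe, of which 71 of 78 listed genes were tested. Of these 71, 0 passed the threshold in limma's test in either direction (all genes, 0.0168%), 3 had an unadjusted p under 0.05 (all genes, 6.13%), and the median difference was -0.04 (all 23753 genes, 0.01). The groups did not overlap at 9 genes that were higher and 16 that were lower in mutant ears, against 18.9% and 17.4% of all genes, or 36.3% in both directions. The genes differed by at most 0.75 in size.

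Upstream of NF-kB stand the IkB kinase subunits, the kinases that activate them, TRAF and cIAP adaptors and the A20 group of inhibitors. Of 25 such genes 0 passed the test, 12 had differences above 0 and 13 below, and they ranged from -0.23 to 0.21. Tnip1, which encodes a partner of A20, read 3.75 and 3.77 in mutant samples 1 and 2 and 3.63 and 3.46 in wild-type samples 1 and 2. Its difference was 0.21 ± 0.12. Traf3, an inhibitor of the non-canonical pathway, had 0.21 ± 0.13, Map3k7, which encodes the kinase TAK1, 0.17 ± 0.13, and Tnfaip3, which encodes A20 itself, 0.17 ± 0.13. In these 4 genes both mutant values were above both wild-type values, as in 6 of the 25 (all genes, 18.9%). In 1 of the 25 both were below (all genes, 17.4%), Sharpin, named after its value was seen, at -0.10 ± 0.11. The list of other IkB proteins and regulators had 14 tested genes, of which 0 passed the test, 0 were higher without overlap and 4 were lower (all genes, 17.4%). Their differences were -0.12 ± 0.12 for Pdlim2, a nuclear ubiquitin ligase of RelA, -0.12 ± 0.12 for Nfkbid, an atypical IkB protein, -0.09 ± 0.11 for the Ras-like IkB binder Nkiras2 and -0.05 ± 0.11 for Nkap.

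The list of inflammatory genes known as NF-kB targets held 30 genes, of which Ccl20, Csf2, Csf3, Il23a and Lif were on the array but not tested. The 25 tested genes ranged from -0.72 to 0.75, with 0 past the threshold. Without overlap 2 were higher and 9 lower in the mutants, against 18.9% and 17.4% of all genes, and 3 had an unadjusted p under 0.05, against 6.13%. The list's median was -0.09, and it was 0.038 without mutant sample 2. Some overlapping genes, named after their values were seen, split the mutant samples. Mutant samples 1 and 2 read 2.00 and 0.10 for Cxcl1, 1.96 and 0.40 for Il6, and -0.53 and -2.13 for Cxcl2. They read 3.07 and 1.78 for Il1b and 0.18 and -1.08 for Ptgs2. Wild-type samples 1 and 2 read 0.23 and 0.48 for Cxcl1 and 0.69 and 0.94 for Il6. Of the 10 Il1b spots 2 lie in the corner with signal loss. For Cxcl10 mutant sample 1 was the lower, at 3.43 against 4.12. Saa3, an acute phase protein, read 4.01 and 3.37 in mutant samples 1 and 2 and 2.75 and 3.13 in wild-type samples 1 and 2. Its difference was 0.75 ± 0.27 (adjusted p = 0.753 with limma), and 0.43 without mutant sample 1. Mmp9, a gelatinase, read -3.12 and -3.26 in the mutants and -2.37 and -2.57 in wild type, a difference of -0.72 ± 0.13 (adjusted p = 0.525). Tnf, the cytokine that both activates the pathway and is its target, read -1.96 and -2.06 in the mutants and -1.70 and -1.43 in wild type. Its difference was -0.45 ± 0.14 (adjusted p = 0.715). Ccl5, a chemokine of T cells and macrophages, read 2.69 and 2.63 in the mutants and 3.36 and 2.89 in wild type. Its difference of -0.46 ± 0.19 was -0.23 without wild-type sample 1 and -0.70 without wild-type sample 2. Each of Mmp9 and Tnf is printed at 10 spots, of which 2 for Mmp9 and 1 for Tnf lie in the corner with signal loss on mutant array 2. With the corner set to missing the differences were -0.69 for Mmp9 and -0.44 for Tnf.

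The list of survival genes among the targets also held Bcl2a1a and Bcl2a1b, which were not matched. Its 10 tested members ranged from -0.40 to 0.16, with 0 past the threshold. Without overlap 1 was higher and 2 were lower, against 18.9% and 17.4% of all genes. Bcl2a1d, an anti-apoptotic BCL-2 relative of leukocytes, read 2.79 and 2.75 in mutant samples 1 and 2 and 3.36 and 2.99 in wild-type samples 1 and 2, a difference of -0.40 ± 0.16 that was -0.22 without wild-type sample 1. Gadd45b had -0.15 ± 0.13 and Xiap, a caspase inhibitor, 0.07 ± 0.11.

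**Figure D4:**
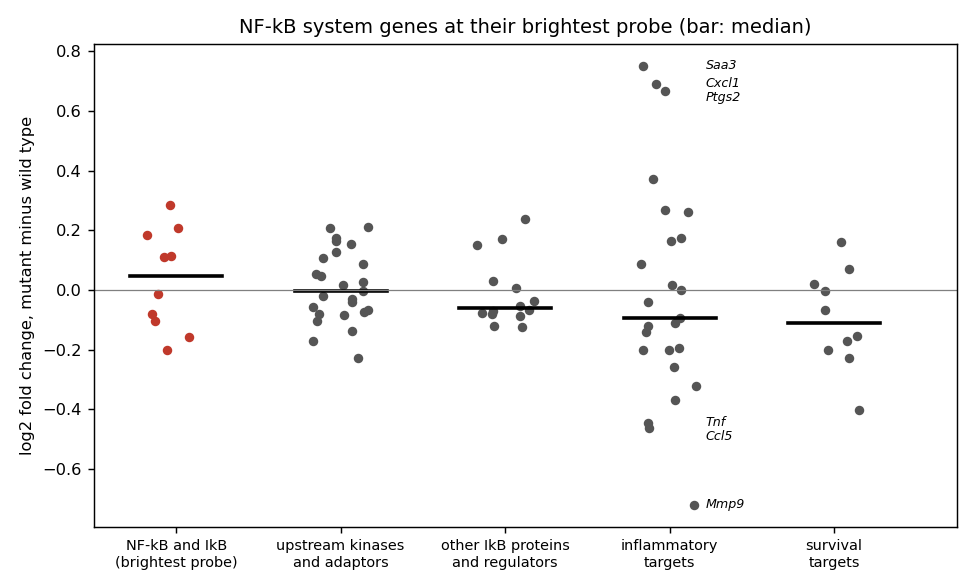
Log2 fold change, mutant minus wild type (y axis), of the 10 NF-kB and IkB genes (red) and of the 4 lists of pathway genes (grey), each gene at its brightest tested probe, with a bar at the median. A gene that stands in several lists is drawn in each, and the genes farthest from 0 are named. Cxcl1 and Ptgs2, named after their values were seen, had overlapping groups. The 10 genes lie between -0.20 and 0.28, while the inflammatory targets reach -0.72 and 0.75.

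Markers of the cell types that an ear holds were read beside these values, and 62 of 62 tested markers were well above background on 4 arrays. The filter for testing already asks for this on both arrays of a group, so the count does not show that every listed marker was detected. Ms4a1 (B cell), Ngp (neutrophil) and Matn1 (cartilage) were on the array but not tested, and Trac (T cell) was not matched. Basal keratinocyte markers were present in both groups: Krt14, whose promoter drives the recombinase, read 8.13 and 8.13 in mutant samples 1 and 2 and 7.68 and 8.10 in wild-type samples 1 and 2. The basal list had a median difference of 0.07 over 6 genes, and of -0.017 without wild-type sample 1. Differences were below 0 for 5 of 5 T cell markers (median -0.26), 3 of 3 B cell markers (median -0.38) and 5 of 6 macrophage markers (median -0.16), and 0 of these passed the threshold. Without wild-type sample 1 the T cell median was -0.11, with 4 of 5 below 0, and the macrophage median -0.047, with 4 of 6 below 0. The T cell median was also -0.11 without mutant sample 1. Without wild-type sample 2 these medians were -0.42 and -0.34. The only spots of the T cell marker Cd3d and the B cell marker Cd79b lie in the corner with signal loss, and with the corner set to missing the medians of both lists were -0.26 and -0.38, as before. Differences were also below 0 for 4 of 4 adipocyte markers (median -0.27), 4 of 4 muscle markers (median -0.18), 4 of 5 suprabasal keratinocyte markers (median -0.13) and 4 of 5 endothelial markers (median -0.12), and above 0 for 4 of 5 markers of Langerhans and dendritic cells (median 0.14), with 0 past the threshold. The only spots of Cdh5 (endothelium) and Col3a1 (fibroblast) also lie in the corner. With the corner set to missing, 3 of 5 endothelial markers were below 0, at the same median of -0.12. The fibroblast median stayed at 0.01. Leaving out 1 sample turned the muscle median to 0.11 (without mutant sample 2) and the Langerhans and dendritic median to -0.092 (without wild-type sample 2). The remaining lists were mixed in sign. Neutrophil markers were 2 above and 3 below 0 (median -0.08) and mast cell markers 3 above and 2 below (median 0.05). Fibroblast markers were 3 above and 3 below (median 0.01) and cartilage markers 2 above and 1 below (median 0.01). Each of these medians changed sign with 1 sample or another left out. Of all 23753 tested genes, 11051 had a difference below 0. The summed signal of the T cell markers, as a multiple of the array's percentile, was 13.4 and 15.6 in mutant samples 1 and 2 and 18.9 and 15.4 in wild-type samples 1 and 2. That of the macrophage markers was 77.7 and 72.0 in the mutants and 89.2 and 79.5 in wild type. The B cell sum was 0.555 and 0.612 in the mutants and 0.698 and 0.728 in wild type. Leukocytes express Relb, Rel, Tnf, Ccl5 and Bcl2a1d, and the part of these cell types in the values was not tested.

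The promoters of the members bear on the feedback loop, since NF-kB acts through kB sites that begin with about the letters GGGNNTTTC or GGGNNTTCC. The RefSeq table of mouse promoters (build GRCm38.p6) held 9 starts of 7 of the 10 genes. It held no start of Relb, Nfkb1 or Nfkbiz, so these were not searched for a match. In the 250 bases before each start, read on both strands, GGGNNTTTC matched 6 of the 9 windows (Rela, Rel, Nfkbia and 3 starts of Nfkb2) and GGGNNTTCC matched 4 (Rel, Nfkbie, Bcl3 and 1 start of Nfkb2), against 3.723% and 4.977% of 32851 promoters. A match is not shown to be a bound site, and no match, as for Nfkbib, says only that these letters are not in the window. The windows of Nfkbia, Rel and 2 starts of Nfkb2 are shown as those of the feedback inhibitor IkB-alpha, of c-Rel and of the p100 precursor. They run 5′ to 3′ on the strand of the gene up to the base before the start, with matches in capitals.
Nfkbia, chr12:55492648-55492897 (GRCm38.p6, minus strand): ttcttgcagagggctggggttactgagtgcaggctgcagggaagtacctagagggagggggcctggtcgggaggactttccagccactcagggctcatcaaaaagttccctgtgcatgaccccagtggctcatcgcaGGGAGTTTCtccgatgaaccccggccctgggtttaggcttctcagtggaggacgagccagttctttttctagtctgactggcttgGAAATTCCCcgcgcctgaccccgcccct
Rel, chr11:23770970-23771219 (GRCm38.p6, minus strand): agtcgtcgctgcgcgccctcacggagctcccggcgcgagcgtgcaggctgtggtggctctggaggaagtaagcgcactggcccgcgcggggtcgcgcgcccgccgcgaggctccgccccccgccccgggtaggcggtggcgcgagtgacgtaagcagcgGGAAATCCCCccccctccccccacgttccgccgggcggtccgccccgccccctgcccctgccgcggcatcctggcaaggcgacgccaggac
Nfkb2, chr19:46304487-46304736 (GRCm38.p6, plus strand): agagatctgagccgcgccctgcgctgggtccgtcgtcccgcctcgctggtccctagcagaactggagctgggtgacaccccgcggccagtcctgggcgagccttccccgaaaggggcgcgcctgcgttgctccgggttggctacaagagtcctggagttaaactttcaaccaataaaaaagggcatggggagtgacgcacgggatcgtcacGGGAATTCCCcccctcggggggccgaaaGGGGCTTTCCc
Nfkb2, chr19:46305680-46305929 (GRCm38.p6, plus strand): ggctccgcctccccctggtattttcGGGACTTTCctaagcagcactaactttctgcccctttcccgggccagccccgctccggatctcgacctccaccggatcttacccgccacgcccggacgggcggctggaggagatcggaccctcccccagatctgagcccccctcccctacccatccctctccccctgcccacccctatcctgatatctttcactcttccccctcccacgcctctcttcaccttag

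Genes with a match differed in sign in the ears. As given above, the log2 differences were -0.08 for Nfkbia, -0.11 for Nfkb2 and -0.20 for Nfkbie, and 0.11 for Rela, 0.18 for Rel and 0.21 for Bcl3, and 0 of them passed the test. Matches of both forms overlap each other in the window of Rel and in the upstream window of Nfkb2.

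The differences were recomputed under 17 other settings of the processing, 4 of which left out 1 sample each, and 0 of the 15 probes passed the threshold in any of them. The difference of Nfkbiz lay between 0.22 and 0.35 and that of the brightest Relb probe between -0.20 and -0.12.

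**Figure D5:**
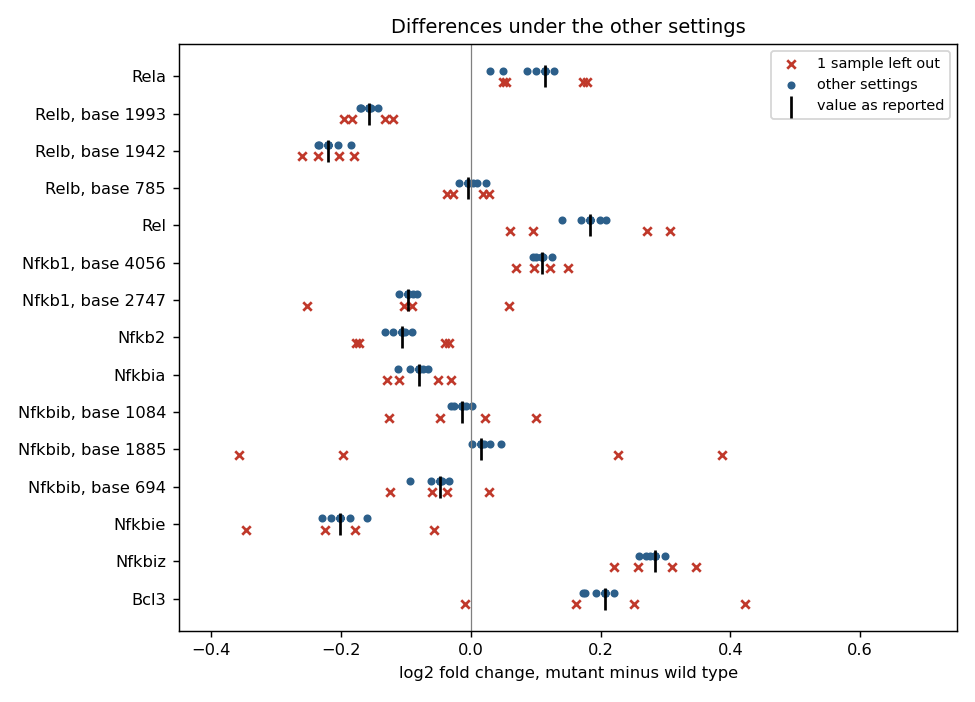
Log2 fold change, mutant minus wild type (x axis), of each probe as reported (black bar), with 1 of the 4 samples left out (red crosses) and under the other settings of the processing (blue points). The probe of Nfkbib from base 1885 moves most when a sample is left out, from -0.36 to 0.39, while Nfkbiz stays between 0.22 and 0.35.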

How the data were processed

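The processed spot intensity was made with Agilent Feature Extraction 10.7.3.1, per the file headers, with spatial and multiplicative detrending and surrogate values for dim spots switched on and background correction off. Arrays were not scaled to each other. The error of each spot, its raw mean intensity and local background are also as deposited. The deposited flags are a score of 0 or 1 per spot (well above background, saturated, outlier). The authors' series table holds the linear ratio of each spot to its array's median, found from the values. All 4 arrays were on 1 slide read in 1 scan. The array medians lay between 47.2 and 54.6, the 75th percentiles between 588.7 and 663.5, and 61.2% to 64.3% of the spots were well above background, with 0 saturated.

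Control spots (3671) and spots with an outlier flag were left out, each array's 75th percentile was subtracted from its log2 intensities, and spots of 1 probe were averaged. Tested were probes well above background on the 2 arrays of a group, in either group or both (33664 of 55596 complete probes, 23753 genes). The difference, mutant minus wild type, was fitted with limma 3.58.1 in R 4.3.3 (also used: data.table in version 1.17.8, python 3.11.15, pandas 2.3.3, matplotlib 3.10.9), two-sided, with Benjamini-Hochberg adjustment over all tested probes and a threshold of 0.05. ± is limma's moderated SE. The test was also run on simulated data with independent noise and planted differences larger than that of any member. Its outcome is not given here, and it does not bear on differences of the sizes reported. An exact permutation of 2 against 2 arrays cannot pass the threshold. Gene names are those of the files, for lists updated through RefSeq accessions. The genes named are every member and, of each list, up to 4 with the largest difference among those without overlap. Other list genes given with values are marked as named after their values were seen. Members, lists and motif letters were chosen with earlier results of these data known. No genome of the build was used, so exon, intron or UTR positions are not given. The alternatives tried were the background correction, the scaling, the authors' values, the filter, a single probe a gene, the moderation, array weights, the corner of mutant array 2 set to missing, a replicate block and each sample left out, and, chosen after the values were seen, the list medians with each sample left out and with the corner set to missing.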

Additional observations from a re-analysis of the deposited data

How the results depend on the processing

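Under the other settings that kept all 4 samples, 0 NF-kB or IkB probes and 0 genes of the pathway lists passed the threshold. Over all 17 settings 237 of 250 recomputed differences of the members kept their sign, 9 of the 15 probes in every setting run. Much of that count was fixed in advance. The authors' values, the filters, a single probe a gene, the moderation, the array weights and the replicate blocks left each member's difference as it was. The corner set to missing could move only Rela. At a probe without overlap no left-out sample can turn the sign. The count is thus no measure of robustness. The sign turned only for differences near 0 or with a sample left out. For Relb at the probe from base 785 it was 0.024 with normexp background correction (offset 50), 0.0035 with quantile normalization and 0.010 with centring on the array median, and -0.036 to 0.028 with a sample left out. For Nfkbib from base 1084 it was 0.0020 with centring on the array median, and -0.13 to 0.10 with a sample left out. The ranges with a sample left out were -0.36 to 0.39 for Nfkbib from base 1885, -0.12 to 0.028 for Nfkbib from base 694, -0.25 to 0.059 for Nfkb1 from base 2747 and -0.0095 to 0.42 for Bcl3. The cause of these turns was not tested. Over the whole array 7 probes passed the threshold, against 1 with no filter on dim probes, 2 with probes above background on all 4 arrays, 4 with 1 probe a gene and 35 with a trended, robust variance. With a sample left out the count ran from 0 (without wild-type sample 1 or 2) to 162 (without mutant sample 1, when mutant array 2, with the corner of signal loss, stood alone), with 1 without mutant sample 2. The lone sample is then assumed to vary like the other group.

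The labels number the samples 1 and 2 in both groups without saying what the numbers share. The deviations of same-numbered samples from their group means correlated at -0.1592 across probes. Outside the corner with signal loss the correlation was -0.2281. With the replicate number as a block 1 probe of the array passed, and with the crossed pairing, chosen after seeing the data, 1 as well, and 0 members in either. Rel, the dimmest member at 26.1 to 30.4 in processed intensity, is the probe that signal over background limits most.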
